A study of Cucumis sativus with 6 samples.

Results

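The 10 most abundant genes of carotenoid synthesis and cleavage were followed in the young fruit of cucumber (Cucumis sativus). They were chosen from a table of 21317 genes. The product name had to contain phytoene, carotene, lycopene, zeaxanthin, violaxanthin or carotenoid, and not P450. This held for 23 genes, and the 10 with the highest mean level over all libraries were taken. The levels therefore chose the genes, and since the mean runs over both tissues, a gene can enter through its level in 1 tissue. Both phytoene synthases did: Csa5G320430 averaged 4.62 FPKM in peel and 23.8 FPKM in flesh, and Csa4G063980 averaged 4.65 FPKM in peel and 19.1 FPKM in flesh. A violaxanthin de-epoxidase (Csa2G083740) with 12.03 FPKM in peel and 8.04 FPKM in flesh was left out. The counts of genes lower in peel, the counts of 4-fold steps and of slopes, and the medians below draw on this choice and are descriptions. The tissue differences and p-values of both phytoene synthases draw on it too and are descriptions as well. The mean was 11.9 FPKM for the last gene taken, a phytoene synthase (Csa4G063980), and 11.1 FPKM for the first gene left out, a lycopene beta cyclase (Csa4G218350). FPKM counts sequenced fragments relative to the length of the gene and to the number of fragments mapped in the library, so levels of different genes can be compared on it.

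The 6 libraries came from the peel and the flesh of fruits of the inbred line YB, taken at days 3, 6 and 9 from self-pollination. The study was on fruit astringency. Each library was made from a mix of 3 fruits, and each tissue and day had 1 library. The recovered read totals lay between 14899922 (peel, day 9) and 23740219 (flesh, day 6). The FPKM summed over all genes also differed, from 573006 (flesh, day 3) to 739338 (peel, day 9). Of 16 tested genes for cuticle and wax synthesis, used as markers of the peel, 13 were higher in peel at each of the 3 days. Their FPKM, summed over 21 listed genes, ran from 289 to 806 in peel and from 90.5 to 162 in flesh. In flesh 2 of these 21 genes were at 0 in all 3 libraries, and in peel none was. In whole tissue, fewer cells of a type and less RNA per cell cannot be told apart.

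Carotenoids are made in plastids from geranylgeranyl diphosphate. Phytoene synthase joins a pair of these molecules and is the step that commits carbon to the pathway. Desaturases and an isomerase turn phytoene into red lycopene, cyclases close its rings to give carotenes, and hydroxylases and epoxidases make the xanthophylls. Dioxygenases cleave the products, and 9-cis-epoxycarotenoid dioxygenases (NCED) yield the precursor of the hormone abscisic acid. In green tissue carotenoids serve light harvesting and protect the photosystems, and in many ripe fruits they give the colour.

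The annotated protein domains fitted the product names of the 10 genes. Both phytoene synthases carried the squalene/phytoene synthase domain, and all 3 cleavage enzymes carried the carotenoid oxygenase domain. NCED and other cleavage dioxygenases share that domain here, so only the product name marks a gene as NCED. Phytoene desaturase (Csa4G011080), zeta-carotene desaturase 1 (Csa1G695370), carotenoid isomerase (Csa3G784380) and zeaxanthin epoxidase (Csa2G277050) each carried the domain of that enzyme. Beta carotene hydroxylase-1 (Csa3G183920) carried the fatty acid hydroxylase domain. No lycopene cyclase was among the 10, nor a violaxanthin de-epoxidase.

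Each tissue difference below was estimated with limma on log2(FPKM + 1) over the 17265 genes whose mean reached 1 FPKM, as peel minus flesh, with day in the model. A gene was called at an adjusted p under 0.05. The standard error measures how far the days depart from a common difference, because there was 1 library for each combination, and a difference that changes with the day counts as error. In peel against flesh 0 of the 10 genes were called, where 0.261% of all tested genes were. At an unadjusted p under 0.05 there were 3 of the 10, all lower in peel, against 25.3% of all tested genes in either direction and 12.3% lower in peel. That count was 1 without either day 6 library and 2 without either day 9 library. On reads recovered from the deposited counts edgeR also called 0 of the 10, where it called 1.45% of all tested genes, and DESeq2 called 2, both lower in peel, where it called 17.3% of all tested genes and 7.22% as lower in peel. With day as a number in place of a factor limma called 1 of the 10, lower in peel, beside 2.75% of all tested genes and 1.11% as lower.

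Among the 10 genes, the phytoene synthases and the more abundant NCED had the lowest levels in peel relative to flesh, and the desaturases and the isomerase were at nearly equal levels in both. The median difference of the 10 was -0.49 log2 units, beside -0.03 over all tested genes, and -0.20 without either day 9 library. By single days this median was -0.08 (day 3), -0.34 (day 6) and -1.08 (day 9), beside 0.0037, -0.03 and -0.06 for all tested genes. Between days in 1 tissue, the largest shifts of the median were 0.27 in flesh from day 3 to day 6, with 7 of the 10 higher, and -0.29 in peel from day 6 to day 9, with 8 of the 10 lower. In 4 of the 10 genes all 3 peel libraries lay below all 3 flesh libraries, against 12.8% of the tested genes. None of the 10 had all peel libraries above all flesh libraries, which 11.8% of the tested genes had. A lower value in peel at each of the 3 days was found for 5 of the 10 against 28.3% of the tested genes, and a higher one for 1, against 25%. Summed over the 10 genes, the FPKM at days 3, 6 and 9 were 200.7, 171 and 131 in peel, against 212, 295 and 332 in flesh.

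**Figure D1:**
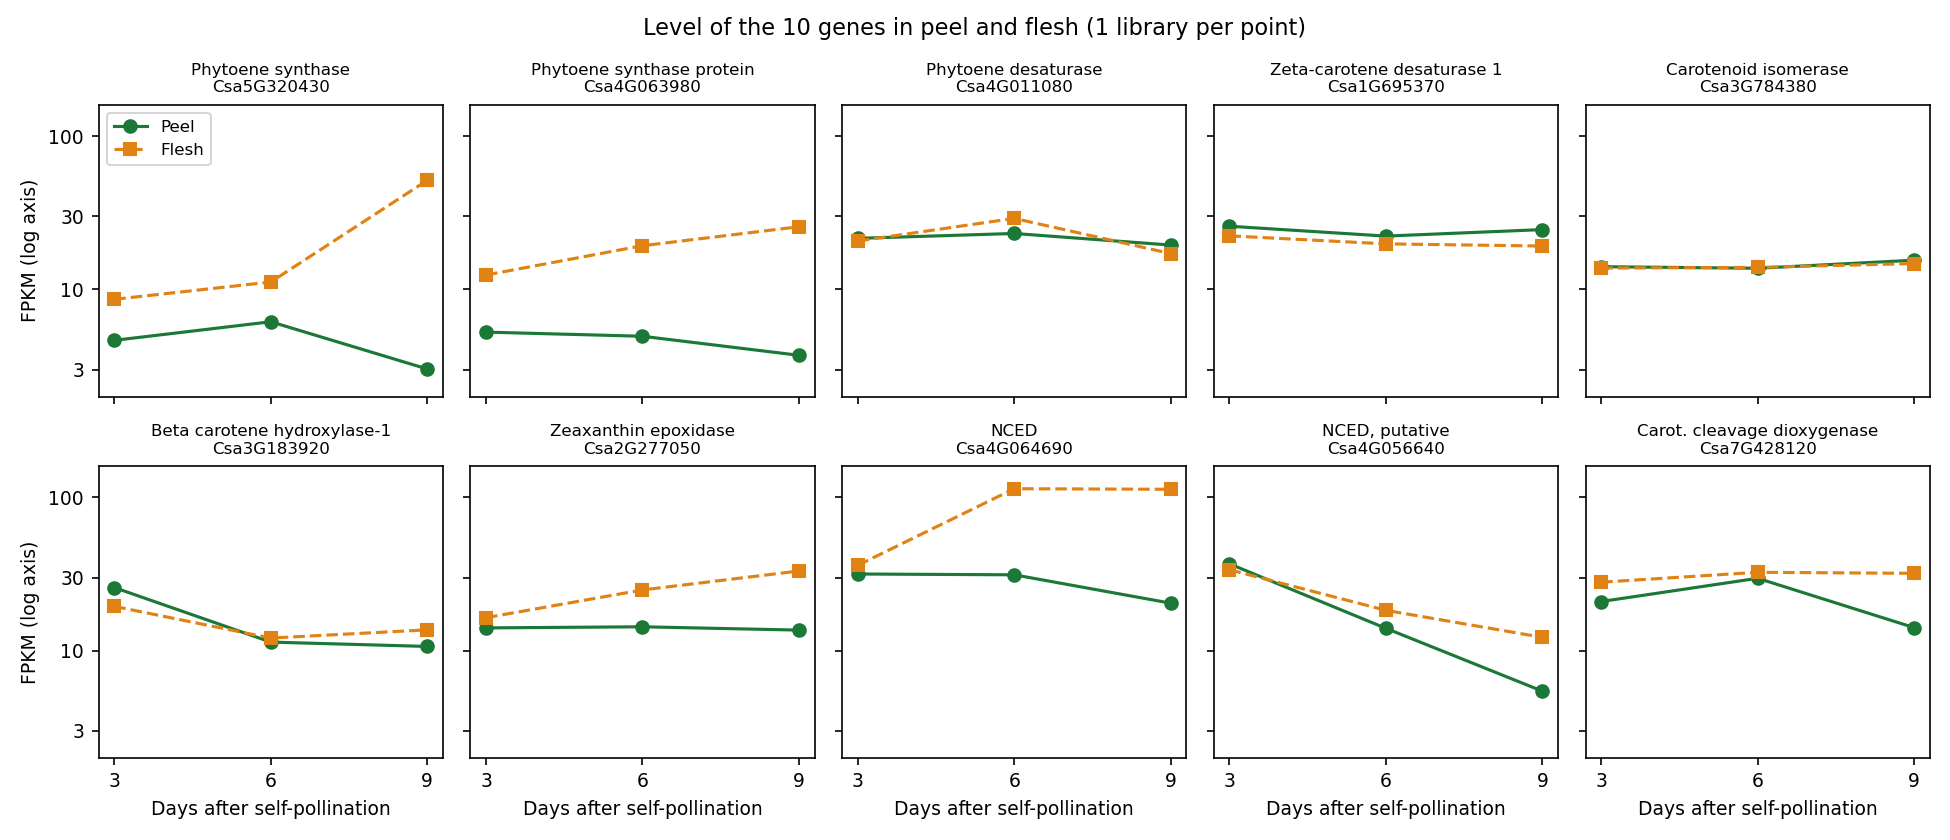
FPKM of each of the 10 genes on a log axis against days after self-pollination, in peel (circles, solid line) and flesh (squares, dashed line), with 1 library per point; NCED stands for 9-cis-epoxycarotenoid dioxygenase. Both phytoene synthases lie lower in peel than in flesh on all 3 days, while carotenoid isomerase stays between 13.8 and 15.5 FPKM in all 6 libraries.

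Phytoene synthase Csa5G320430 (chromosome 5, 13008050 to 13010728) had 4.66, 6.16 and 3.03 FPKM in peel at days 3, 6 and 9, against 8.63, 11.2 and 51.5 FPKM in flesh. The 3 peel libraries lay below the 3 flesh libraries, and the day 9 flesh library stood far above all the others. In peel the level was 54.0%, 55.1% and 5.88% of that in flesh at the 3 days. The difference was -1.75 ± 0.68 (SE) log2 units (limma adjusted p = 0.208), and without the day 9 peel or the day 9 flesh library it was -0.77. The day 9 peel value rested on 63 reads, with an exact 95% Poisson interval of 48.4 to 80.6 reads, and the day 9 flesh value on 1426 reads, with an interval of 1353 to 1502. These intervals cover counting error only.

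The second phytoene synthase, Csa4G063980 (chromosome 4, 5092952 to 5096598), had 5.27, 4.95 and 3.72 FPKM in peel, against 12.4, 19.3 and 25.7 FPKM in flesh. Its peel values were lower at each later day and its flesh values higher, so the groups did not overlap and stood further apart with time. Such a course was found in 1 of the 10 genes and in 2.69% of all tested genes. Its peel values of days 3 and 6 rested on 241 and 208 reads. Their exact 95% Poisson intervals, 211.5 to 273.4 and 180.7 to 238.3 reads, overlapped. In peel the level was 42.4%, 25.7% and 14.5% of that in flesh. The difference was -1.79 ± 0.32 (SE), with limma adjusted p = 0.0804, the smallest among the 10 genes. With edgeR the adjusted p was 0.0784, with DESeq2 it was 5.16e-05, and with day as a number in limma it was 0.0461. Leaving out each library in turn gave differences between -2.13 and -1.43.

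Another phytoene synthase, Csa4G280510, ranked below the 10 with a mean of 5.72 FPKM. It had 2.03, 0.324 and 0.446 FPKM in peel, the last 2 from 12 and 11 reads, against 10.1, 9.53 and 11.9 FPKM in flesh. All its peel libraries lay below all flesh libraries (-2.67 ± 0.34, SE, limma adjusted p = 0.0613, DESeq2 adjusted p = 4.68e-08). It averaged 0.932 FPKM in peel and 10.5 FPKM in flesh, so it passed the filter of 1 FPKM through flesh. Its difference is therefore a description and no separate support for the order of the other synthases. Summed over the 3 genes, phytoene synthase had 11.96, 11.4 and 7.20 FPKM in peel, against 31.1, 40.0 and 89.1 FPKM in flesh. The makeup of this sum differed among flesh libraries. Csa5G320430 was at 0.694 and 0.580 times the FPKM of Csa4G063980 in flesh at days 3 and 6, and at 2.01 times at day 9. In peel the same ratio was 0.884, 1.24 and 0.814.

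The steps just after phytoene synthase were the most even of the 10 genes. Phytoene desaturase (Csa4G011080), which makes the first pair of double bonds, had 21.6, 23.2 and 19.5 FPKM in peel, against 20.7, 29.1 and 17.2 FPKM in flesh. The tissues overlapped, and day 6 was the highest day in both. Its difference of -0.03 ± 0.18 (SE) turned to 0.11 without either day 6 library. Zeta-carotene desaturase 1 (Csa1G695370), which acts next, had 25.9, 22.3 and 24.6 FPKM in peel, against 22.4, 19.8 and 19.2 FPKM in flesh. It was the 1 gene of the 10 with a higher value in peel at each day, by 0.23 ± 0.15 (SE) log2 units, and the ranges of the tissues overlapped.

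Carotenoid isomerase (Csa3G784380), which sets the double bonds of lycopene to the trans form, had 14.1, 13.8 and 15.5 FPKM in peel, against 13.8, 13.9 and 14.8 FPKM in flesh. Its highest library was 1.13 times its lowest. The SD of its log2(FPKM + 1) over the 6 libraries was 0.065, smaller than in all but 0.116% of the tested genes. This gene shares its deposited locus with an ABC transporter gene, so its values may hold reads of that gene. Its tissue difference was 0.03 ± 0.16 (SE), and it turned to -0.021 with upper-quartile and -0.012 with quantile rescaling. For comparison, the SD of zeta-carotene desaturase 1 was above that of 5.05% of the tested genes and that of phytoene desaturase above 17.8%. The SD of the phytoene synthases Csa5G320430 and Csa4G063980 was above that of 91.03% and 84.6% of the tested genes.

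**Figure D2:**
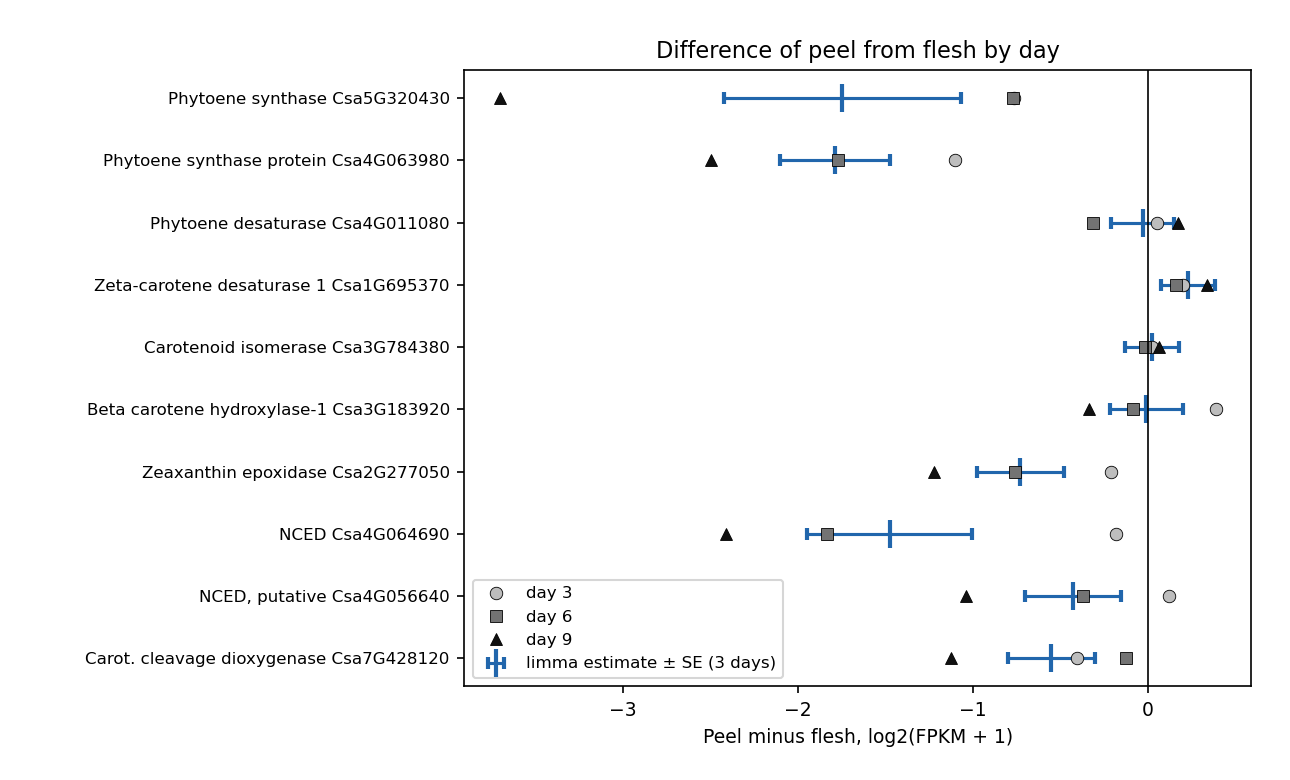
Peel minus flesh on the log2(FPKM + 1) scale for each of the 10 genes at day 3 (circles), day 6 (squares) and day 9 (triangles), with the limma estimate over the 3 days and its SE (blue). For Csa5G320430 the day 3 point is hidden under the day 6 point at -0.77; the points of the desaturases and the isomerase lie between -0.31 and 0.34, and the day 9 point is the lowest one in the other 7 genes.

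The xanthophyll enzymes followed different courses. Beta carotene hydroxylase-1 (Csa3G183920), which makes zeaxanthin from beta-carotene, had 25.8, 11.4 and 10.7 FPKM in peel, against 19.5, 12.1 and 13.7 FPKM in flesh. Day 3 was the highest day in both tissues, and the tissues overlapped. The tissue difference was -0.0078 ± 0.21 (SE), and it took the opposite sign with a pseudocount of 5 and without any 1 of the day 6 or day 9 libraries. Zeaxanthin epoxidase (Csa2G277050), which turns zeaxanthin into violaxanthin, had 14.1, 14.3 and 13.6 FPKM in peel, against 16.4, 24.9 and 33.1 FPKM in flesh. Peel stayed within a narrow range below all flesh libraries, and flesh was higher at each later day. In peel its level was 85.8%, 57.5% and 41.2% of that in flesh, with a difference of -0.73 ± 0.25 (SE; limma adjusted p = 0.177), and of -0.48 without either day 9 library. In FPKM the epoxidase was at 0.546, 1.26 and 1.28 times the hydroxylase in peel and at 0.843, 2.06 and 2.42 times in flesh.

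The cleavage enzymes held the highest level of the 10 genes. The NCED gene Csa4G064690 (chromosome 4, 5289845 to 5291369) had 31.6, 31.3 and 20.4 FPKM in peel, against 36.05, 113.9 and 112.9 FPKM in flesh. The tissues were close at day 3, and the flesh libraries of days 6 and 9 stood far above the other 4. In peel the level was 87.8%, 27.4% and 18.1% of that in flesh, with a difference of -1.48 ± 0.47 (SE; limma adjusted p = 0.162, DESeq2 adjusted p = 0.0165). It made up 15.8%, 18.3% and 15.6% of the summed FPKM of the 10 genes in peel, against 17.0%, 38.6% and 34.0% in flesh.

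The second NCED gene, Csa4G056640 (chromosome 4, 4825004 to 4827125), had 36.8, 14.0 and 5.45 FPKM in peel, against 33.7, 18.3 and 12.2 FPKM in flesh. It was lower at each later day in both tissues, and the tissues overlapped. The ratio of Csa4G064690 to Csa4G056640 in FPKM was 0.859, 2.23 and 3.75 in peel, against 1.07, 6.21 and 9.25 in flesh. The order of these genes was thus reversed in peel between days 3 and 6, and in flesh Csa4G064690 was already the higher at day 3. The carotenoid cleavage dioxygenase Csa7G428120, of a family that makes small volatile and signalling products, had 20.9, 29.7 and 14.1 FPKM in peel, against 28.0, 32.5 and 32.0 FPKM in flesh. It was lower in peel on each day, by -0.55 ± 0.25 (SE; limma adjusted p = 0.255), with overlapping ranges. Without either day 9 library the difference was -0.26.

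At single days the tissues were also compared at a bound of 4-fold on the log2(FPKM + 1) scale, with no test, since each group was 1 library. At days 3 and 6, 0 of the 10 genes passed it, beside 3.48% and 7.15% of the tested genes. At day 9, 3 of the 10 passed it, all lower in peel, beside 3.94% of the tested genes that were at least 4-fold lower in peel and 11% in either direction. These 3 were both phytoene synthases (-3.70 for Csa5G320430 and -2.50 for Csa4G063980) and the NCED gene Csa4G064690 (-2.41). With a pseudocount of 5 in place of 1 the count was 2. The day 9 peel library had the fewest reads of the 6. From day 6 to day 9 in flesh 1 of the 10 genes was at least 4-fold higher, Csa5G320430, beside 3.35% of the tested genes and 4.33% in either direction, and with a pseudocount of 5 it was 0 of the 10. In peel, and from day 3 to day 6 in flesh, 0 of the 10 passed the bound in either direction. That was the case for 1.7% of the tested genes in peel from day 3 to day 6, 5.99% in peel from day 6 to day 9 and 2.1% in flesh from day 3 to day 6.

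The course from day 3 to day 9 over both tissues was tested in the same model. In it limma called 0 of the 10 genes and 0% of all tested genes, and DESeq2 called 1 of the 10, as lower at day 9, and 16.4% of all tested genes, 8.45% as lower. At an unadjusted p under 0.05 there were 2 of the 10, both lower at day 9, against 24.9% of the tested genes and 13.6% as lower, and edgeR called 0 of the 10 and 0.145% of the tested genes. These 2 were the NCED gene Csa4G056640 and beta carotene hydroxylase-1. The day 9 minus day 3 difference of Csa4G056640 was -1.97 ± 0.33 (SE; limma adjusted p = 0.0690, DESeq2 adjusted p = 6.93e-05). That of the hydroxylase (Csa3G183920) was -0.84 ± 0.26 (SE; limma adjusted p = 0.151), and -0.54 without the day 3 peel library. Without either day 6 library 1 of the 10 was under an unadjusted p of 0.05. The median over the 10 genes was -0.01, with 5 positive and 5 negative differences, beside 0.0060 over all tested genes.

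Whether the course differed between the tissues was asked in a model in which each tissue has its own slope over the number of days. The slope in peel minus that in flesh was not called for any of the 10 genes, nor for any tested gene (0%), with limma or edgeR. DESeq2 called 0 of the 10 and 2.11% of the tested genes. At an unadjusted p under 0.05 limma had 3 of the 10, all with the lower slope in peel, against 8.72% of the tested genes and 4.88% in that direction. They were the phytoene synthases Csa5G320430 (-0.49 ± 0.15 log2 units per day, SE) and Csa4G063980 (-0.23 ± 0.08) and the NCED gene Csa4G064690 (-0.37 ± 0.13), with limma adjusted p of 0.479, 0.520 and 0.546. Both synthases entered the 10 through their level in flesh, so the share of 3 in 10 is a description. The count of 3 was 0 without the day 3 or the day 9 peel library, 1 without the day 6 peel, day 3 flesh or day 9 flesh library, and 2 without the day 6 flesh library. The slope difference of Csa5G320430 was -0.20 without the day 9 flesh, -0.29 without the day 9 peel and -0.78 without the day 3 flesh library. That of Csa4G064690 was -0.097 without the day 3 flesh and -0.65 without the day 9 flesh library.

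The other 13 genes with a carotenoid product name had lower levels, and 10 of them were tested. In limma 0 of these were called for peel against flesh. Below an unadjusted p of 0.05 there was 1 gene higher and there were 4 lower in peel, beside 25.3% of all tested genes and 12.3% as lower. The median difference of the 10 tested here was -0.33. The lycopene beta cyclases, which give beta-carotene, differed in direction. Csa4G218350 had 8.86, 8.49 and 9.73 FPKM in peel, against 12.8, 11.6 and 14.9 FPKM in flesh. Csa4G001730 had 0.911, 0.662 and 0.761 FPKM in peel, against 3.62, 7.90 and 7.04 FPKM in flesh (-1.96 ± 0.32, SE; limma adjusted p = 0.0764, DESeq2 adjusted p = 2.53e-07). In both genes all peel libraries lay below all flesh libraries. Csa4G001730 averaged 0.778 FPKM in peel and 6.18 FPKM in flesh, so it passed the filter of 1 FPKM through flesh.

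The third cyclase, Csa2G000360, ran the other way. It had 5.61, 5.83 and 4.34 FPKM in peel, against 5.25, 2.72 and 0.800 FPKM in flesh, and its 3 values in flesh were lower at each later day. Summed over the 3 cyclases the level was 15.4, 15.0 and 14.8 FPKM in peel, against 21.7, 22.2 and 22.8 FPKM in flesh. The sum was thus nearly constant within each tissue. Its largest part, Csa4G218350, ran only from 8.49 to 9.73 FPKM in peel and from 11.6 to 14.9 FPKM in flesh. In flesh Csa2G000360 was lower at each later day, and Csa4G001730 was higher at days 6 and 9 than at day 3.

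Violaxanthin de-epoxidase (Csa2G083740), which reverses the epoxidase step in strong light, had 13.001, 12.01 and 11.1 FPKM in peel, against 10.4, 6.99 and 6.75 FPKM in flesh. All peel libraries lay above all flesh libraries (0.55 ± 0.18, SE; limma adjusted p = 0.172). The other gene of this name, Csa2G297200, had 4.46, 3.98 and 3.24 FPKM in peel, against 4.86, 4.47 and 4.49 FPKM in flesh. The NCED gene Csa6G523440 had 1.33, 2.81 and 0.169 FPKM in peel, against 4.38, 6.16 and 9.76 FPKM in flesh. Its day 9 peel value rested on 5 reads. The NCED gene Csa1G435760 had 1.98, 1.39 and 0.881 FPKM in peel, against 0.875, 0.853 and 0.181 FPKM in flesh.

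The putative zeta-carotene desaturase Csa2G271410 had 7.71, 9.995 and 6.32 FPKM in peel, against 6.51, 3.22 and 6.83 FPKM in flesh, and it carried an amine oxidase domain in place of that of the desaturase. The phytoene dehydrogenase-like gene Csa4G047340 had 9.17, 6.54 and 3.71 FPKM in peel, against 10.9, 10.4 and 5.84 FPKM in flesh. The remaining 3 genes had means under 1 FPKM and were not tested. They were a second beta-carotene hydroxylase (Csa5G152820), carotenoid cleavage dioxygenase 7 (Csa6G106700), which acts in strigolactone synthesis, and an NCED gene (Csa2G160620). The hydroxylase Csa5G152820 had 0.156, 0.240 and 0.552 FPKM in peel, against 0.0794, 0.792 and 2.80 FPKM in flesh. The NCED gene Csa2G160620 was listed at 0 in 3 of the 6 libraries and had at most 3 reads.

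**Figure D3:**
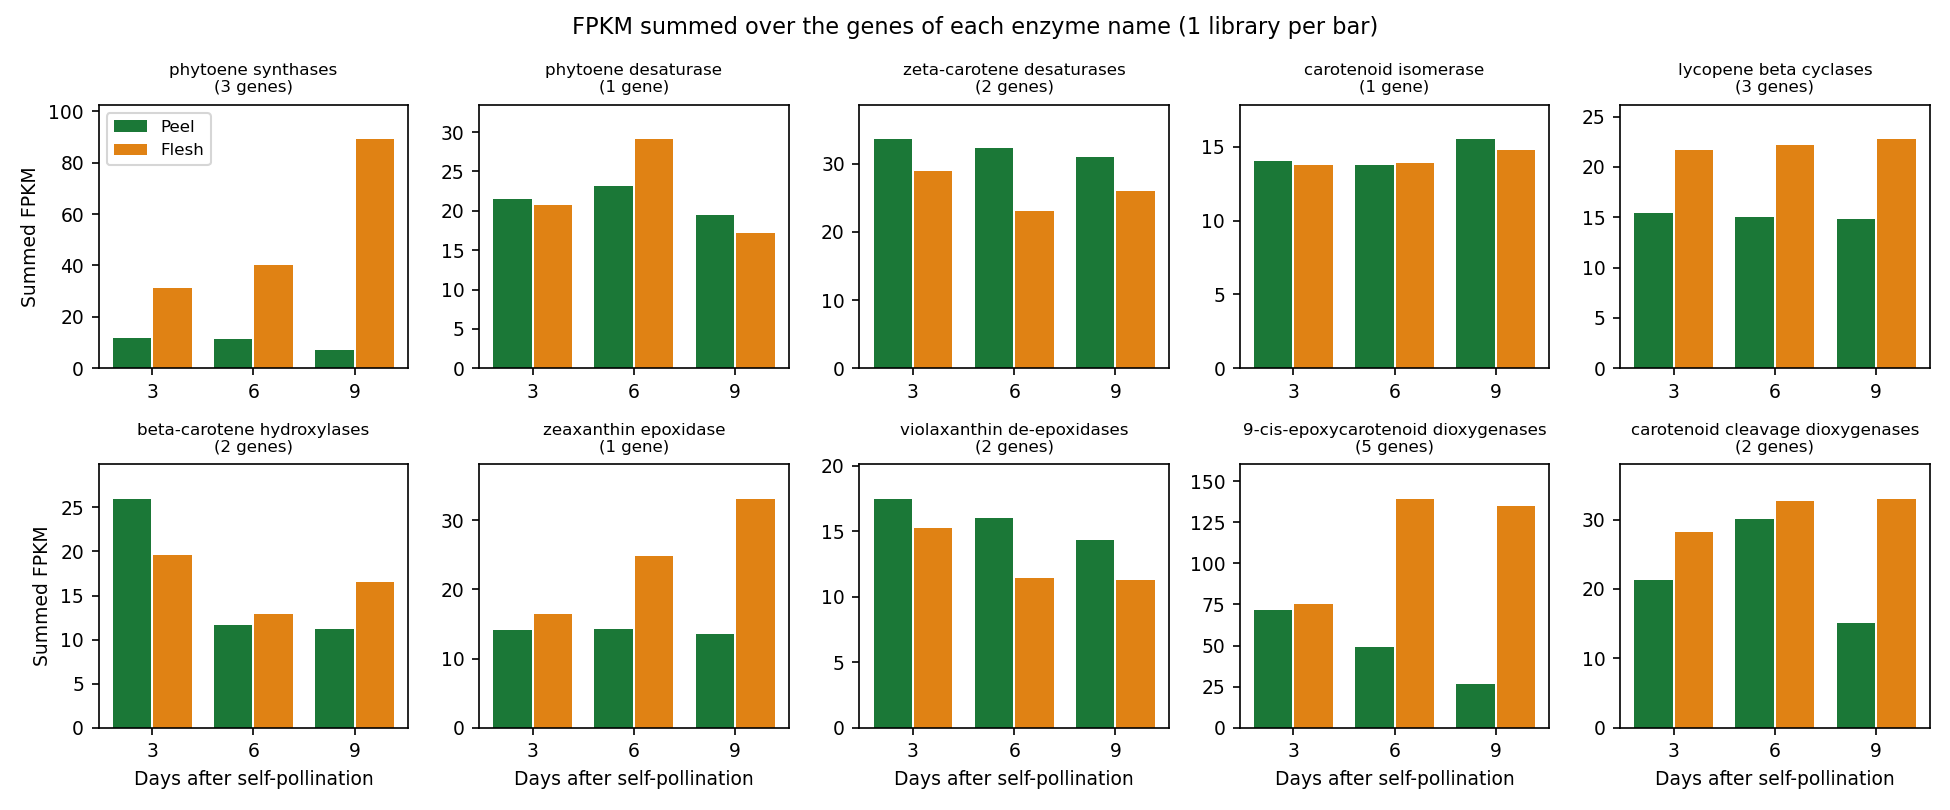
FPKM summed over all genes of each enzyme name, the 10 most abundant genes and the others together, in peel (left bar of each pair) and flesh (right bar) at days 3, 6 and 9, with 1 library per bar and an axis from 0 that differs between panels. Summed phytoene synthase is at 11.96, 11.4 and 7.20 FPKM in peel, against 31.1, 40.0 and 89.1 FPKM in flesh, while the highest bar is 1.70 times the lowest for phytoene desaturase, 1.46 times for the zeta-carotene desaturases and 1.13 times for carotenoid isomerase.

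Of the 23 genes, 8 lay on chromosome 4. On it the NCED gene Csa4G056640, phytoene synthase Csa4G063980 and the NCED gene Csa4G064690 followed each other among the 23 genes, with gaps of 265827 and 193247 bases. Genes outside the 23 were not considered in these gaps. These positions are those of the deposited table, whose genome build is not given in the sources used here. Of these genes, Csa4G063980 and Csa4G064690 had all peel libraries below all flesh libraries, and Csa4G056640 did not.

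The enzymes that supply geranylgeranyl diphosphate were examined as a list, from the plastid methylerythritol phosphate (MEP) pathway to the prenyl synthases. Of 15 tested genes limma called 0. Below an unadjusted p of 0.05 there were 2 higher and 2 lower in peel, beside 25.3% of all tested genes and 12.3% as lower. The median difference of the 15 genes was 0.03. Of 5 genes for 1-deoxy-D-xylulose-5-phosphate synthase, the entry enzyme of the MEP pathway, 1 was higher and 3 were lower in peel on each day. Their summed level was 50.4, 51.8 and 138.8 FPKM in peel, against 77.6, 65.1 and 51.3 FPKM in flesh, so peel was lower at days 3 and 6 and higher at day 9. The gene of this group that was higher in peel, Csa1G420340, had 13.1, 20.7 and 92.7 FPKM in peel, against 0.193, 0.168 and 0.189 FPKM in flesh. The flesh values rested on 16, 13 and 11 reads, so this gene passed the filter of 1 FPKM through peel. Its difference was 4.69 ± 0.58 (SE; limma adjusted p = 0.0613; edgeR adjusted p = 0.0408), the only gene of the neighbouring lists that edgeR called.

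Among those that were lower in peel, Csa3G114510 had 2.41, 1.43 and 2.37 FPKM in peel, against 20.7, 8.08 and 3.90 FPKM in flesh. Csa2G379940 had 6.10, 5.86 and 4.09 FPKM in peel, against 10.4, 11.9 and 7.004 FPKM in flesh. Csa6G067390 had 19.8, 18.3 and 30.4 FPKM in peel, against 37.0, 35.7 and 32.2 FPKM in flesh. Of 4 geranylgeranyl diphosphate synthase genes, 2 were higher and 1 was lower in peel on each day. Csa7G211090 had 14.4, 3.03 and 71.8 FPKM in peel, against 7.16, 1.10 and 3.79 FPKM in flesh. The most abundant synthase of this kind, Csa2G296070, was at 73.5, 55.4 and 43.9 FPKM in peel, against 84.8, 80.9 and 52.6 FPKM in flesh. The synthase genes of this list other than Csa2G296070 were chosen here after their values were seen. The next most abundant supply genes were isopentenyl-diphosphate delta isomerases, which make the starter unit of the chain. Csa2G074290 had 52.9, 53.1 and 39.9 FPKM in peel, against 51.0, 74.1 and 69.0 FPKM in flesh. Csa1G656460 had 49.3, 46.1 and 78.4 FPKM in peel, against 49.7, 54.5 and 54.5 FPKM in flesh.

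**Figure D4:**
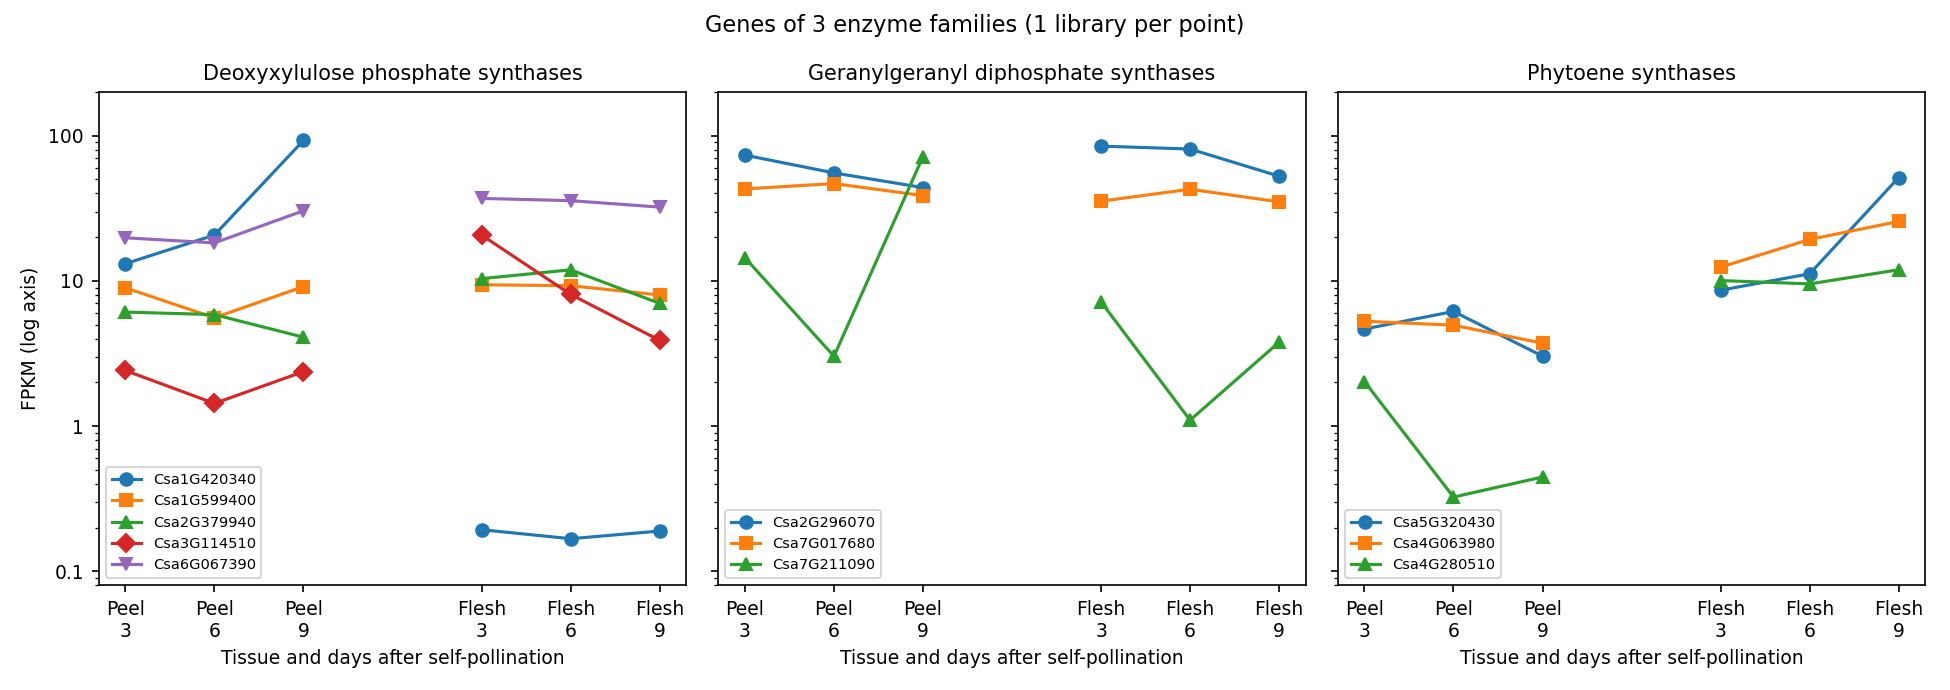
FPKM on a log axis of the 1-deoxy-D-xylulose-5-phosphate synthase genes, the geranylgeranyl diphosphate synthase genes and the phytoene synthase genes in peel and then flesh at days 3, 6 and 9, with 1 library per point; a geranylgeranyl pyrophosphate synthase gene near 0 in all libraries is not drawn. Csa1G420340 runs from 13.1 to 92.7 FPKM in peel, against 0.168 to 0.193 FPKM in flesh, while the 3 phytoene synthases lie lower in peel.

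Chloroplast genes were taken as a further list, since carotenoids accompany the photosystems. Of 38 tested genes for chlorophyll binding and photosystem proteins limma called 0 for peel against flesh. Below an unadjusted p of 0.05 there were 4 higher and 11 lower in peel, beside 25.3% of all tested genes and 12.3% as lower. The median of the 38 genes was -0.30. The most abundant of them, a chlorophyll a-b binding protein (Csa6G139750), had 300.8, 118 and 37.6 FPKM in peel, against 527, 566 and 253 FPKM in flesh. The next, a photosystem II 10 kDa polypeptide (Csa4G064020), had 503, 232 and 243 FPKM in peel, against 282, 196 and 241 FPKM in flesh. By day the median was 0.22, -0.13 and -0.67 at days 3, 6 and 9, in the same order as that of the 10 carotenoid genes. This order was not particular to these lists. The median of all tested genes had it (0.0037, -0.03 and -0.06). So had those of the phloem markers named below (1.23, -0.33 and -0.62) and the chlorophyll biosynthesis genes (0.11, 0.09 and -0.27). Other lists did not, such as the supply list (0.05, -0.24 and 0.13). The chlorophyll binding and photosystem genes, summed over 44 genes, ran from 1180 to 3164 FPKM in peel and from 2140 to 3090 FPKM in flesh. Of these genes 0 were at 0 throughout a tissue. The day 9 minus day 3 difference was negative in 36 of the 38, with a median of -1.12, and in 8562 of the 17265 tested genes. The part of green tissue in the carotenoid values was not tested. For the 24 chlorophyll biosynthesis genes the median difference between peel and flesh was -0.08, with 0 called, and with 3 on either side below an unadjusted p of 0.05. The most abundant, glutamate-1-semialdehyde aminomutase (Csa7G067490), had 256, 139.8 and 117 FPKM in peel, against 154, 92.4 and 59.2 FPKM in flesh. Delta-aminolevulinic acid dehydratase (Csa2G401270), which also acts early, had 76.7, 50.4 and 85.7 FPKM in peel, against 50.5, 37.2 and 60.3 FPKM in flesh. Both were higher in peel on each day. Protochlorophyllide reductase (Csa4G638340), the light-dependent step of that synthesis, had 200.2, 81.6 and 20.1 FPKM in peel, against 215, 181 and 118 FPKM in flesh, lower in peel on each day.

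Of the other lists, the 10 plastoglobule and fibrillin genes, which coat lipid droplets of plastids, had a median of 0.05. At an unadjusted p under 0.05, 2 of the 10 were higher in peel, as were 2237 of the 17265 tested genes. The plastid-lipid-associated gene Csa6G512870 had 41.5, 53.6 and 85.4 FPKM in peel, against 28.1, 36.7 and 27.7 FPKM in flesh. The next most abundant, Csa2G379140, had 38.3, 37.8 and 13.6 FPKM in peel, against 33.8, 28.0 and 28.9 FPKM in flesh. The 7 tocopherol and plastoquinone genes, whose products share the prenyl supply, had a median of -0.18. In limma 0 of either list were called. The only tested gene downstream in abscisic acid synthesis was a putative aldehyde oxidase, Csa4G269130, at 8.05, 7.89 and 8.56 FPKM in peel, against 10.7, 10.9 and 15.8 FPKM in flesh. No product name matched the P450 carotenoid hydroxylases. Phloem markers differed between tissues by day, with a summed FPKM of 8832 to 14651 in peel and 1507 to 18131 in flesh over 31 genes, of which 1 was at 0 throughout peel and 1 throughout flesh. Seed and ovule markers summed to 1906 to 5351 FPKM in peel and 1470 to 3969 FPKM in flesh over 42 genes, of which 2 were at 0 throughout peel and 4 throughout flesh. Most of the seed and ovule sum was 1 late embryogenesis abundant protein gene (Csa7G398090). It had 1975, 1472 and 4875 FPKM in peel, against 1413, 1114 and 3547 FPKM in flesh. Of 20 tested seed and ovule genes 9 were higher and 11 lower in peel, and limma called 1. This was the legumin-like gene Csa3G218170, lower in peel with limma adjusted p = 0.0471. It had 10.7, 10.97 and 4.81 FPKM in peel, against 112, 123 and 127 FPKM in flesh. A more abundant gene of this list, the late embryogenesis abundant protein gene Csa3G121560, went the other way. It had 155, 246 and 320 FPKM in peel, against 5.45, 3.90 and 64.1 FPKM in flesh. Its difference was 4.18 ± 0.68 (SE, limma adjusted p = 0.0754). The part of phloem or of seed and ovule in the carotenoid values was not tested.

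Over the 6 libraries, which share 2 tissues and 3 days, the phytoene synthases, zeaxanthin epoxidase and the NCED gene Csa4G064690 had pairwise Pearson correlations of log2(FPKM + 1) between 0.844 and 0.953. Zeta-carotene desaturase 1 stood at -0.902 to -0.849 with these 4 genes. The NCED gene Csa4G056640 and beta carotene hydroxylase-1, both highest at day 3, correlated at 0.858. The carotenoid cleavage dioxygenase Csa7G428120 stood at 0.649 to 0.757 with the first 4 genes and at -0.792 with zeta-carotene desaturase 1. The SD of that desaturase was only 0.16 log2 units. The genes named here were grouped after their correlations were seen, and these values are a description of 6 libraries.

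The genes whose course was most like that of the NCED gene Csa4G064690 over the 6 libraries were picked by Pearson correlation of log2(FPKM + 1) among 12575 candidates, each with a product name and a mean that reached 5 FPKM. With 6 libraries that share tissues and days, high values are common, and 302 of these genes reached 0.9. The closest with an enzyme or carrier name were Ferredoxin-6 (Csa6G045160) at 0.995 and a monodehydroascorbate reductase (Csa6G451470) at 0.992, after a gene named only by a cDNA clone (Csa3G280960) at 0.998. Ferredoxin-6 had 28.5, 30.2 and 22.8 FPKM in peel, against 29.8, 50.3 and 51.9 FPKM in flesh. For the FPKM summed over the 10 genes the closest was a pentatricopeptide repeat-containing protein (Csa7G447050) at 0.995, followed by an NADH-ubiquinone oxidoreductase subunit (Csa1G042310) at 0.995 and a member of the NAD dependent epimerase/dehydratase family (Csa3G900980) at 0.989.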

How the data were processed

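Peel and flesh RNA of 6 libraries, each from 3 mixed fruits per the labels, was analysed from 1 deposited table. Per the labels' protocols, mRNA was isolated and rRNA removed. Per the submitters' processing notes, the tools were TopHat and Cufflinks 2.1.1. Build, annotation and strand setting were not found in any source at hand, and reads may be split between overlapping genes or near-identical copies. The authors' FPKM values were used as deposited, as their headers name them. The count columns that the authors deposited held a scaled signal, not whole numbers. Divided by 1 step per library, 99.77% to 99.99% of these values came within 0.05 of a whole number. Depth and count tests use the reads recovered in this way.

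The 17265 genes whose mean reached 1 FPKM were tested in R 4.3.3 with limma 3.58.1 on log2(FPKM + 1), with tissue and day as a factor, an intensity trend, 2 residual degrees of freedom, two-sided tests and Benjamini-Hochberg adjustment over all genes tested. Fold changes on this scale understate those of low genes. edgeR 4.0.16 (quasi-likelihood) and DESeq2 1.42.0 served as alternatives on the recovered reads, beside other pseudocounts, filters, scalings and models and each library left out. Scripts were tested on simulated data. The libraries of different days served as the only replicates of a tissue, so p-values measure the spread between these libraries.

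The members and lists were chosen with earlier results of these data known. Named by rule are all 23 genes, up to 3 of the most abundant genes of other lists and the 3 most alike genes of 2 profiles. The supply list also names synthase genes chosen after their values were seen. Gene names are the product names of the table; sequences were not used here.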

Additional observations from a re-analysis of the deposited data

Results flagged for a closer look

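The phytoene synthase gene Csa4G063980, which entered the 10 through its level in flesh, was lower at each later day in peel. In flesh it was higher at each later day, and no other gene of the 10 had this course. This held for 2.69% of all tested genes. Its FPKM were 5.27, 4.95 and 3.72 in peel, against 12.4, 19.3 and 25.7 in flesh. The Poisson intervals of its peel reads at days 3 and 6 overlapped. Zeaxanthin epoxidase missed the course only through 14.1 against 14.3 FPKM in peel at days 3 and 6. Csa4G064690 missed it only through 113.9 against 112.9 FPKM in flesh at days 6 and 9. The slope of Csa4G063980 in peel minus that in flesh was -0.23 log2 units per day. The test of this difference in limma gave an adjusted p of 0.520, so it was not called.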

How the results depend on the processing

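The tissue differences of the carotenoid genes did not pass limma, and several calls depended on the test. For peel against flesh DESeq2 called 2 of the 10 genes and limma with day as a number called 1, where it called 475 of 17265 genes. For day 9 against day 3 DESeq2 called 1. Among the neighbouring lists, 1 gene, Csa1G420340, passed for peel against flesh with a pseudocount of 0.1, with quantile normalization and with edgeR under both scalings. Of the 105 tested genes of these lists, 2 passed without a day term, where 120 of all 17265 tested genes passed. With day as a number 5 of the 105 passed, beside 2.75% of all tested genes. DESeq2 called 19 of the 105 for peel against flesh, beside 17.3% of all tested genes. For day 9 against day 3 it called 29 of the 105, beside 16.4% of all tested genes. With a pseudocount of 5, 0 of the 10 genes were 4-fold apart in flesh between days 9 and 6, and 2 in peel against flesh at day 9.

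The median over the 10 genes for day 9 against day 3 was near 0. It ran from -0.24 to 0.17 with 1 library left out and was 0.027 with edgeR, 0.060 with edgeR on DESeq2 size factors and 0.060 with DESeq2. For peel against flesh that median ran from -0.66 to -0.20 with 1 library left out. Some differences changed sign. For peel against flesh these were Csa3G183920 (0.0056 with a pseudocount of 5; -0.21 to 0.15 with 1 library left out), Csa4G011080 (0.012 with edgeR on DESeq2 size factors, 0.011 with DESeq2; -0.13 to 0.11) and Csa3G784380 (-0.021 with upper-quartile and -0.012 with quantile scaling). For day 9 against day 3 Csa3G784380 was at -0.0073 with upper-quartile scaling. With 1 library left out the day 9 difference ran from -0.46 to 1.48 in Csa4G064690, -0.24 to 0.82 in Csa4G063980, -0.60 to 0.26 in Csa7G428120 and -0.49 to 2.45 in Csa5G320430. The slope difference then ran from -0.18 to 0.22 in Csa4G011080, -0.29 to 0.051 in Csa3G183920, -0.026 to 0.039 in Csa3G784380, -0.37 to 0.13 in Csa7G428120 and -0.033 to 0.080 in Csa1G695370. The cause was not tested. Over the alternatives, 480 of 510 values of single genes kept their direction and side of the threshold, 26 changed sign and 4 passed the threshold. The main models called 0 of the 10 genes, so keeping the side meant staying uncalled. The count of 480 is therefore no measure of how firm the differences are.

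Upper-quartile scaling moved the median day difference of all genes to -0.11, against 0.0060 as deposited. No paired analysis was possible by replicate number, because each tissue and day had 1 library. Day as a factor in the model already sets the tissues against each other within a day, and without it limma called 0 of the 10 genes. Depth limits the low genes, such as Csa4G280510 with 11 reads in peel at day 9.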
